A study of Mus musculus with 25 samples.

Results

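Alternative promoters are the separate start regions of 1 gene. A protein-coding mouse gene was taken as a member when its curated RefSeq mRNAs started at 2 or more promoters that lay over 5 kb apart, where transcription start sites (TSSs) within 1 kb of each other counted as 1 promoter. Of 21000 protein-coding genes with curated mRNAs, 1369 met this rule, and they held 3233 of the 23478 promoters of all these genes. The rule used the annotation alone and no ChIP-seq value. Of the members, 998 genes had 2 promoters, 277 had 3, 72 had 4, 16 had 5, 4 had 6 and 2 had 7. The outermost promoters of a gene lay apart by a median of 26.0 kb (quartiles 11.1 and 71.3 kb), with the largest distance, 2184 kb, at Cntnap2, a neuronal cell adhesion gene. Mier1, at 5000 bp, lay just outside the limit, and Fbxo38, at 5011 bp, just inside it.

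The series asks what Spin1, a reader of histone modifications, does in developing skeletal muscle. Spin1 and H3K4me3 (histone H3 trimethylated at lysine 4) were mapped by ChIP-seq in primary myoblasts, which are cultured muscle precursor cells, here taken by preplating from limb muscle of C57BL/6N mice at an age of 10 days. No transgene or treatment is given for these cells. Each antibody, a custom anti-SPIN1 serum and an H3K4me3 antibody, gave 1 library, amplified with 12 PCR cycles, and input DNA of the same cells served as the control for peak calling. The lists held 17106 Spin1 peaks and 30763 H3K4me3 peaks, and the score of a peak grows with its significance over the input (minus 10 log10 of p). A promoter was called marked by a list when a peak overlapped TSS±1 kb by at least 1 bp. There were no replicates, so no test was made. Shares are given with 95% Wilson intervals and medians with 95% intervals from the ranks, and both cover counting error only. Promoters of 1 gene are not independent of each other, and a peak is not a measure of transcription.

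Marker genes of several cell types were looked up first. All 10 myoblast markers looked at, among them Myod1, Pax7, Des and Cdh15, had H3K4me3 and Spin1 at a promoter, and none of the 5 haematopoietic markers had either. Of 5 genes of fibroblasts and fibro-adipogenic cells, 4 had H3K4me3 and 3 had Spin1 (Col1a1, Pdgfra and Tcf7l2). H3K4me3 without Spin1 lay at 5 of 5 neural and 3 of 5 endothelial markers, and both marks lay at 1 of 5 hepatocyte markers, Apoa2. What part other cell types in the culture have in the results below was not tested.

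Many genes use alternative promoters to start transcription in different tissues or stages, and the mRNAs then differ in their first exon and often in the N terminus of the protein. H3K4me3 is deposited around TSSs of active genes and of many poised ones, above all where CG dinucleotides are dense (CpG islands), and Spin1 binds the mark through its Tudor-like domains. In muscle, alternative promoters separate muscle from non-muscle isoforms of well-known genes, such as the tropomyosins. They also separate the fast alkali light chains of myosin, encoded by Myl1, from each other.

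The promoters of 5 genes show the combinations of marks that recur below, and were chosen after their values were seen. Each sequence is the 150 bases upstream of the first TSS of a promoter, 5′ to 3′ on the strand of the gene, read from GRCm38, and capitals mark each CG.
Spin1 upstream: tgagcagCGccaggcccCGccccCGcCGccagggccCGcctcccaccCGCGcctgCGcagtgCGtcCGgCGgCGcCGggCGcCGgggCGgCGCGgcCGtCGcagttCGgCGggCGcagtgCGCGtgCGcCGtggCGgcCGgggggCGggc
Spin1 downstream: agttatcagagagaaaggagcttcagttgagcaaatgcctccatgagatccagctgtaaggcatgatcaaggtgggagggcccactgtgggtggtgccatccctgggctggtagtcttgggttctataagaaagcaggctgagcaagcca
Tpm3 upstream: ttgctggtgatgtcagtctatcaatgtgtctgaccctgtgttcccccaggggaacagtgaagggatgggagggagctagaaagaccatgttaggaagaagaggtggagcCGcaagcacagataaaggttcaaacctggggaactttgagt
Tpm3 downstream: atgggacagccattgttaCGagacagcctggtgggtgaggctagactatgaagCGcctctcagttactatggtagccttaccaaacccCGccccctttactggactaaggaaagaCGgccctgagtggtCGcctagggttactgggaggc
Myl1 upstream: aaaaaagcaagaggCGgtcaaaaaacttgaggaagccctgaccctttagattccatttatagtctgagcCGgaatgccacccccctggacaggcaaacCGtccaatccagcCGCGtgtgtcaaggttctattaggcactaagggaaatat
Myl1 downstream: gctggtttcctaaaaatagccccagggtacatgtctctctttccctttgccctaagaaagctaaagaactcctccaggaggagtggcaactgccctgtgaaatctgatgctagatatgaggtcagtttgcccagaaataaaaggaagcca
Cdkn2a upstream: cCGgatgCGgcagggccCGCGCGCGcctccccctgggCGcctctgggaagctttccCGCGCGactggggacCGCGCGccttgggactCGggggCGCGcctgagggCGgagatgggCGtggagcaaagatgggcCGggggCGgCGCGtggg
Cdkn2a downstream: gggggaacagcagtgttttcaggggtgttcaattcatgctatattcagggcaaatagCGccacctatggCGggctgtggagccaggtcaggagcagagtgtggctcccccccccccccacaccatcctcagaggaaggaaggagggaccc
Runx1 upstream: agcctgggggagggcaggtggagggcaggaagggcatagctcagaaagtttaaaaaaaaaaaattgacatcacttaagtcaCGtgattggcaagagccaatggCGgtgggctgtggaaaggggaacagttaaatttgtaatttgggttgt
Runx1 downstream: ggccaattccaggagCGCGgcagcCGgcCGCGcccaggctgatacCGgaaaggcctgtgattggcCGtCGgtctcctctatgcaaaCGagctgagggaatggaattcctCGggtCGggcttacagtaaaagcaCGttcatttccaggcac
Spin1 itself is a member. Its upstream promoter (chr13:51100730-51100879, plus strand) held 30 CG in these 150 bases and had both marks, while its downstream promoter (chr13:51132647-51132796, plus strand), 31.9 kb further on, held 0 and had neither. Tpm3, a tropomyosin gene whose upstream exon begins the skeletal muscle isoform, showed the reverse order. Its upstream promoter (chr3:90072501-90072650, plus strand) held 1 CG and had no mark, and its downstream promoter (chr3:90079371-90079520, plus strand) held 5 and had both. Myl1 encodes the fast alkali light chains of myosin, 1f from the upstream and 3f from the downstream promoter. Its upstream promoter (chr1:66945057-66945206, minus strand) held 5 CG and had both marks, and its downstream promoter (chr1:66935367-66935516, minus strand) held 0 and had H3K4me3 alone. Cdkn2a starts p19ARF upstream (chr4:89294620-89294769, minus strand, 22 CG, both marks) and the cell cycle inhibitor p16INK4A downstream (chr4:89282193-89282342, minus strand, 2 CG, H3K4me3 alone). Runx1, a runt-domain transcription factor, had both marks at the distal promoter (chr16:92826075-92826224, minus strand) with 2 CG and at the proximal one (chr16:92697330-92697479, minus strand) with 12. The number of CG near the TSS thus went with the marks in 4 of these 5 genes, and Runx1 is the exception. At the upstream promoters of Spin1 and Cdkn2a, another gene starts within 1 kb.

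Alternative promoters carried both marks less often than the promoters of all genes, and Spin1 fell short by more than H3K4me3. H3K4me3 marked 1969 of the 3233 alternative promoters, or 60.9% (59.2 to 62.6%), against 65.6% of all 23478 promoters. Spin1 marked 1354, or 41.9% (40.2 to 43.6%), against 53.4% of all. When only the 50% of peaks scored highest were kept, Spin1 marked 25.8% of the alternative promoters. No share over all promoters is given for that setting, so the shortfall is shown for the full lists alone. Where H3K4me3 was present, Spin1 was present too at 1350 of 1969, or 68.6% (66.5 to 70.6%), against 81.3% over all genes. The alternative promoters thus fell into 1350 with both marks, 619 with H3K4me3 alone, 1260 with neither and 4 with Spin1 alone. H3K4me3 alone made up 19.1% of them and 10.8% of the 19040 promoters of genes that have 1 promoter, but also 18.3% (16.2 to 20.5%) of the 1205 promoters of genes whose several promoters all lie within 5 kb, so that this excess is not particular to promoters over 5 kb apart. These 1205 promoters stood between the groups for Spin1, with 52.7% marked, and above both for H3K4me3, with 70.9%. Neither mark fell short at the upstream-most promoters of the 1369 members, where H3K4me3 marked 73.1% and Spin1 55.1%. Of the other 1864 alternative promoters, H3K4me3 marked 51.9% and Spin1 32.1%. Where upstream-most promoters had H3K4me3, Spin1 was present at 75.3%, still below the 81.3% over all genes.

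Most member genes had a mark at some of their promoters and not at others. H3K4me3 lay at every promoter of 447 of 1369 genes (32.7%), at some of them in 764 (55.8%) and at none in 158 (11.5%). Spin1 lay at every promoter of 215 genes (15.7%), at some in 755 (55.1%) and at none in 399 (29.1%). In 954 genes (69.7%; 67.2 to 72.1%), 2 promoters of the same gene differed in their combination of marks. Counted by gene, the members were not short of marks. At least 1 promoter had H3K4me3 in all but the 158 genes above, whereas 66.1% of the genes with 1 promoter were marked, but a gene with more promoters also has more chances to be marked.

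The 998 genes with exactly 2 promoters show where the marks lie. The most frequent combination, in 284 genes (28.5%), was both marks upstream and neither downstream. Next came both marks at both promoters (185 genes), no mark at either (131 genes) and both marks upstream with H3K4me3 alone downstream (92 genes). The order of these is not stable, since both marks at both promoters were found in 68 genes with the upper 50% of peaks by score and in 160 genes with predicted transcripts added, each time fewer than the genes without H3K4me3 at either promoter. Both marks downstream with an unmarked upstream promoter, the mirror image of the leading combination, occurred in 84 genes (8.42%).

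**Figure D1:**
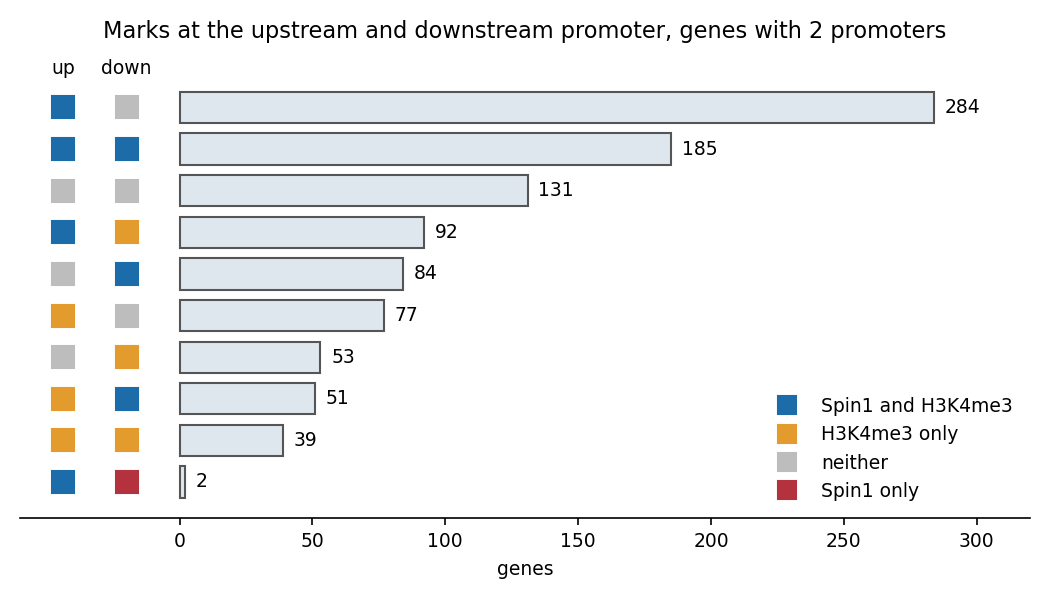
Genes with 2 promoters over 5 kb apart (998 genes) by the marks at the upstream (up) and downstream (down) promoter; bars and numbers give genes. The combination of both marks upstream and neither downstream leads with 284 genes, and its mirror image has 84.

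Upstream promoters, those nearest to the 5′ end of the gene, were marked more often than downstream ones. H3K4me3 marked 73.1% (70.3 to 75.8%) of the upstream and 50.5% (47.4 to 53.6%) of the downstream promoters, and Spin1 marked 56.4% (53.3 to 59.5%) and 32.3% (29.4 to 35.2%). In the 500 genes with H3K4me3 at 1 promoter, it lay upstream in 363, or 72.6% (68.5 to 76.3%). In the 511 genes with Spin1 at 1 promoter, it lay upstream in 376, or 73.6% (69.6 to 77.2%). Genes with 3 promoters showed the same order, and genes with more did so in part. In the 277 genes with 3 promoters, Spin1 lay at 52.7% of the first, 31.4% of the next and 27.8% of the last, and H3K4me3 at 73.3%, 50.9% and 49.8%. In the 72 genes with 4, H3K4me3 lay at 69.4% of the first and 55.6% of the last, with intervals that overlap, and Spin1 at 52.8%, 36.1%, 31.9% and 37.5% in order. In the 16 genes with 5, H3K4me3 lay most often at the first (87.5%), followed by 50%, 50%, 81.3% and 62.5%, while Spin1 lay at 31.3% of the first and 37.5% of the last.

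H3K4me3 at both promoters did not entail Spin1 at both. Of the 367 genes with H3K4me3 at both (36.8% of 998), 185, or 50.4% (45.3 to 55.5%), had Spin1 at both, 143 had it at 1 and 39 at neither. These shares depend on the choices made, since H3K4me3 lay at both in 16.4% of genes when predicted transcripts were added, and Spin1 at both in 26.8% of such genes when the 50% of peaks scored highest were kept. Where Spin1 lay at 1 of the 2 H3K4me3 promoters, it was the upstream one in 92 and the downstream one in 51 genes (64.3% upstream; 56.2 to 71.7%). In genes with H3K4me3 at 1 promoter, Spin1 joined it at 286 of 363 upstream promoters (78.8%; 74.3 to 82.7%) and at 84 of 137 downstream promoters (61.3%; 53.0 to 69.1%).

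The promoters with Spin1 stood out within their genes by wider H3K4me3 peaks. Widths were compared instead of scores, because scores accumulate at 3100, which 77.0% of the H3K4me3 peaks at alternative promoters had or exceeded. In 140 genes with separate H3K4me3 peaks at both promoters and Spin1 at 1, the H3K4me3 peak was wider at the promoter with Spin1 in 130 (92.9%; 87.4 to 96.1%). The medians were 3553 bp with Spin1 and 1635 bp without, and the median difference within a gene was 1901 bp (1758 to 2210 bp). Over all alternative promoters, Spin1 lay at 2 of 121 with an H3K4me3 peak of up to 1 kb (1.65%), 82 of 400 from 1 to 2 kb (20.5%), 382 of 507 from 2 to 3 kb (75.3%) and 884 of 941 over 3 kb (93.9%). The share thus rose with the width over its whole range. In genes with 1 promoter, the shares were higher in each class above 1 kb, namely 32.7%, 86.4% and 97.5%, so that the lower share of Spin1 at alternative promoters was seen within classes of H3K4me3 width too. Narrow H3K4me3 peaks of up to 2 kb were also more frequent, with 6.15% and 20.3% of the marked alternative promoters in the classes up to 1 kb and from 1 to 2 kb, against 2.65% and 12.7% for genes with 1 promoter.

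**Figure D2:**
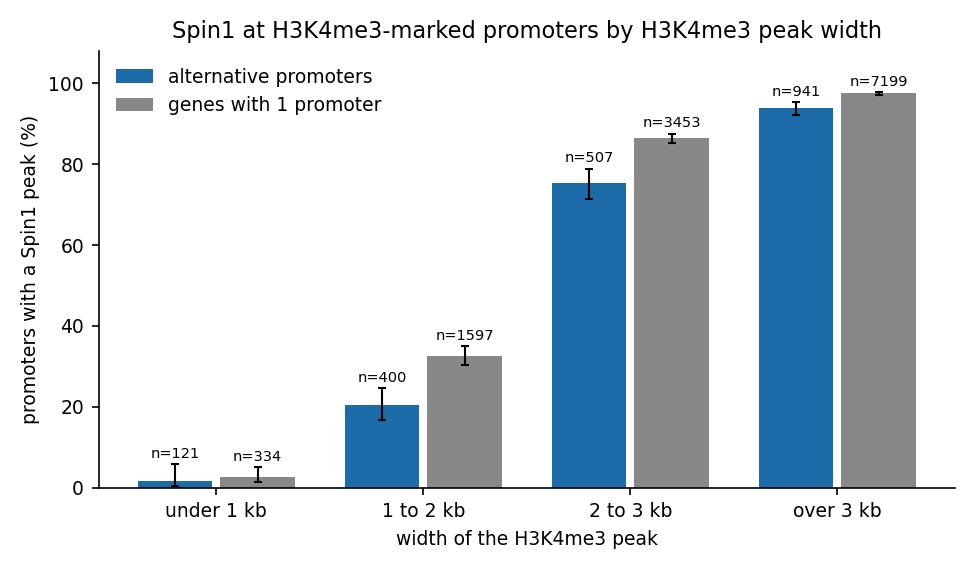
Share of H3K4me3-marked promoters with a Spin1 peak (%) by width of the H3K4me3 peak, for alternative promoters (blue) and genes with 1 promoter (grey); error bars are 95% Wilson intervals and n is the number of promoters. The share rises from 1.65 to 93.9% at alternative promoters and is lower than in genes with 1 promoter in the classes above 1 kb.

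Peaks were wider upstream than downstream in the full lists, with overlapping intervals for Spin1. When the 50% of peaks scored highest were kept, the medians upstream and downstream were 2597 and 2597 bp for Spin1, and 3336 bp (3211 to 3447 bp) and 3143 bp (2900 to 3294 bp) for H3K4me3, so that the difference was lost for Spin1 and the intervals overlap for H3K4me3. Without promoters near another gene, the Spin1 medians were 2111 bp (2015 to 2244 bp) upstream and 2004 bp (1856 to 2256 bp) downstream. At upstream promoters of genes with 2, the median width was 3138 bp (3021 to 3296 bp) for H3K4me3 and 2305 bp (2180 to 2401 bp) for Spin1, and at downstream promoters 2638 bp (2503 to 2782 bp) and 2017 bp (1856 to 2197 bp). Within the 360 genes with separate H3K4me3 peaks at both promoters, the upstream peak was wider in 213 (59.2%; 54.0 to 64.1%), by a median of 399 bp. Within the 187 genes with separate Spin1 peaks, the upstream one was wider in 118 (63.1%; 56.0 to 69.7%), by a median of 486 bp.

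The sequence around the TSS differed between the combinations of marks. The CpG ratio is the number of CG in the 500 bases on either side of the TSS divided by the number that the C and G content would give. Its median was 0.718 (0.705 to 0.733) at alternative promoters with both marks, 0.442 (0.419 to 0.459) with H3K4me3 alone and 0.228 (0.221 to 0.235) with neither. Genes with 1 promoter showed the same order, with 0.756, 0.534 and 0.174. Within the 500 genes with H3K4me3 at 1 of 2 promoters, the marked promoter had the higher CpG ratio in 470 (94.0%; 91.6 to 95.8%), and the medians were 0.746 and 0.236. The same held for Spin1 where both promoters had H3K4me3, since the promoter with Spin1 had the higher ratio in 126 of 143 genes (88.1%; 81.8 to 92.4%), with medians of 0.753 and 0.380.

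Upstream and downstream promoters of like CpG ratio differed less in their marks than all of them did. Ratios of 0.5 or more were found at 614 of 998 upstream promoters (61.5%) and at 296 of 998 downstream promoters (29.7%). From 0.5 to 0.75, H3K4me3 marked 95.3% of the upstream and 95.3% of the downstream promoters, and Spin1 67.6% and 68.6%. Above 0.75, H3K4me3 marked 100% and 99.2%, and Spin1 96.1% (93.5 to 97.7%) and 90.3% (83.8 to 94.4%). From 0.25 to 0.5, H3K4me3 marked 50.5% and 43.7%, and Spin1 20.2% and 18.9%, with intervals that overlap. Below 0.25, H3K4me3 marked 13.1% of the upstream and 17.9% of the downstream promoters, and the downstream promoters were marked more often by Spin1, with 25 of 347 (7.20%; 4.93 to 10.4%) against 4 of 176 upstream (2.27%; 0.887 to 5.70%). The upstream excess was therefore small or lacking within classes of the CpG ratio. Below 0.25 the order was reversed, with intervals that overlap for both marks.

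Alternative promoters and the promoters of genes with 1 promoter were also compared within these classes, as ratios of 0.5 or more were found at 40.9% of the former and 57.1% of the latter. Below 0.25, alternative promoters were marked more often, by H3K4me3 in 20.8% against 7.25% and by Spin1 in 8.41% against 3.29%. From 0.25 to 0.5, H3K4me3 marked 49.6% against 48.6%, and Spin1 22.9% against 26.5%. From 0.5 to 0.75, H3K4me3 marked 95.1% against 96.4%, and Spin1 66.5% against 80.0%. Above 0.75, Spin1 marked 93.1% against 94.5%. The lower share of Spin1 at alternative promoters was thus largest in the class from 0.5 to 0.75 and reversed below 0.25.

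**Figure D3:**
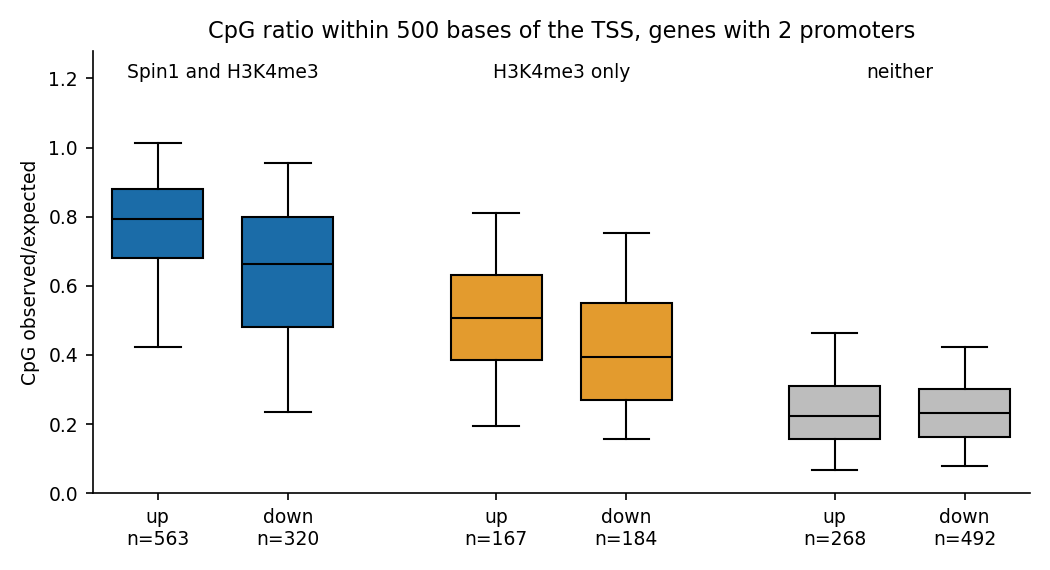
CpG ratio (observed over expected CG within 500 bases of the TSS) of upstream and downstream promoters in genes with 2 promoters, by marks; boxes show the quartiles and the median, whiskers the range from the 5th to the 95th percentile, and n the promoters. Medians fall from 0.793 (up) and 0.662 (down) with both marks to 0.223 and 0.231 with neither.

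The TATA box, a core promoter element of many tissue-specific genes, was found at few promoters, most often at those without marks. The letters TATAA on the strand of the gene, searched from 40 to 15 bases upstream of the TSS, were found at 86 of 3233 alternative promoters (2.66%; 2.16 to 3.27%) and at 4.57% of all 23478 promoters. They were found at 15 of 1350 alternative promoters with both marks (1.11%), 8 of 619 with H3K4me3 alone (1.29%) and 63 of 1260 with neither (5%). Over all genes, the shares were higher in each class, with 1.73%, 3.60% and 9.33%. The opposite strand was not searched, since the element has a direction.

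Among members, distance between the promoters had little relation to the marks from 5 to 50 kb. H3K4me3 lay at both promoters in 88 of 246 genes with a distance of 5 to 10 kb (35.8%), 101 of 310 with 10 to 25 kb (32.6%) and 55 of 174 with 25 to 50 kb (31.6%). With only the upper 50% of peaks by score, these shares were 21.5%, 21.6% and 21.3%. The share was 48.9% (40.7 to 57.2%) in 137 genes with 50 to 100 kb and 42.7% (34.6 to 51.3%) in 131 genes with over 100 kb. Genes without H3K4me3 at either promoter made up 16.7%, 14.2% and 17.8% of the classes up to 50 kb, but 5.11% and 6.11% of those beyond. The lower of the 2 CpG ratios of a gene had medians of 0.244, 0.245 and 0.265 up to 50 kb. Beyond, they were 0.331 (0.296 to 0.377) and 0.298 (0.261 to 0.335). What part the CpG ratio has in these shares was not tested. For Spin1 at both promoters the shares were 17.9%, 18.7%, 16.1%, 29.2% (22.2 to 37.3%) and 13.0% (8.26 to 19.8%) in order of distance. The Spin1 intervals at 50 to 100 kb and over 100 kb overlapped those up to 50 kb. So did the H3K4me3 interval over 100 kb. Genes with 2 promoters at 1 to 5 kb, which are not members, had H3K4me3 at both in 60.2% of 568 genes, and in 51.8% of the genes 1 H3K4me3 peak covered both. Among members this was rare, with 7 genes of the 998 under a shared peak. Of all 1369 members, 86 had at least 2 promoters under the same H3K4me3 peak and 59 under the same Spin1 peak.

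**Figure D4:**
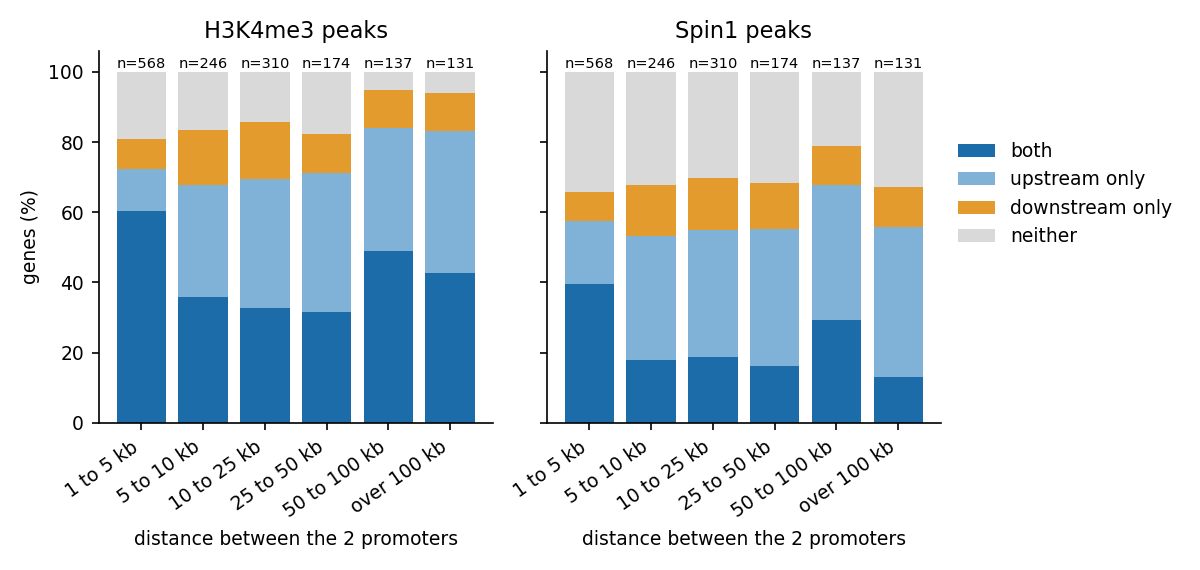
Share of genes with 2 promoters (%) by distance between them and by where H3K4me3 (left) and Spin1 (right) peaks lay; n is the number of genes, and genes at 1 to 5 kb are not members. H3K4me3 at both promoters falls from 60.2% at 1 to 5 kb to 31.6% at 25 to 50 kb and is 48.9% at 50 to 100 kb.

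The place of a promoter in the gene model went with its marks. The downstream TSS lay in an intron of a transcript from the upstream promoter in 920 of 998 genes and in an exon in 78. H3K4me3 marked 486 of 920 intronic downstream promoters (52.8%; 49.6 to 56.0%) and 18 of 78 exonic ones (23.1%; 15.1 to 33.6%). RefSeq marks 1 representative transcript per gene as Select, and it started upstream in 624 and downstream in 374 of the 998 genes. Upstream promoters with the Select transcript had H3K4me3 in 84.5% (81.4 to 87.1%) and downstream promoters with it in 67.9% (63.0 to 72.4%). Spin1 marked 67.9% (64.2 to 71.5%) of the upstream and 49.5% (44.4 to 54.5%) of the downstream promoters with the Select transcript. The promoters without it had H3K4me3 in 54.3% upstream and 40.1% downstream, and Spin1 in 37.2% and 22.0%. Both the position and the representative transcript therefore went with the marks. These shares were not split by CpG ratio, and within its classes the upstream excess was small or lacking.

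The start codon was shared by transcripts from both promoters in 405 genes (40.6%), so that the protein can be the same, and differed in 593 (59.4%). H3K4me3 lay at both promoters in 32.6% (28.2 to 37.3%) of the genes with a shared start codon and in 39.6% (35.8 to 43.6%) of those without, and Spin1 at both in 18.8% and 18.7%. A TSS of another gene lay within 1 kb of 266 alternative promoters (8.23%), less often than for genes with 1 promoter (14.2%). H3K4me3 marked 89.1% and Spin1 76.3% of these 266, against 58.4% and 38.8% of the other 2967, and a peak at such a promoter cannot be assigned to 1 of the neighbouring genes. Such a marked promoter was present in Arpp21, Cd82, Cdkn2a, Dst, Gnas, Hk1 and Igf2. It was also present in Pfkm, Rbms3, Setd5, Snrpn, Sox6, Speg and Spin1, among the genes described by promoter.

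**Figure D5:**
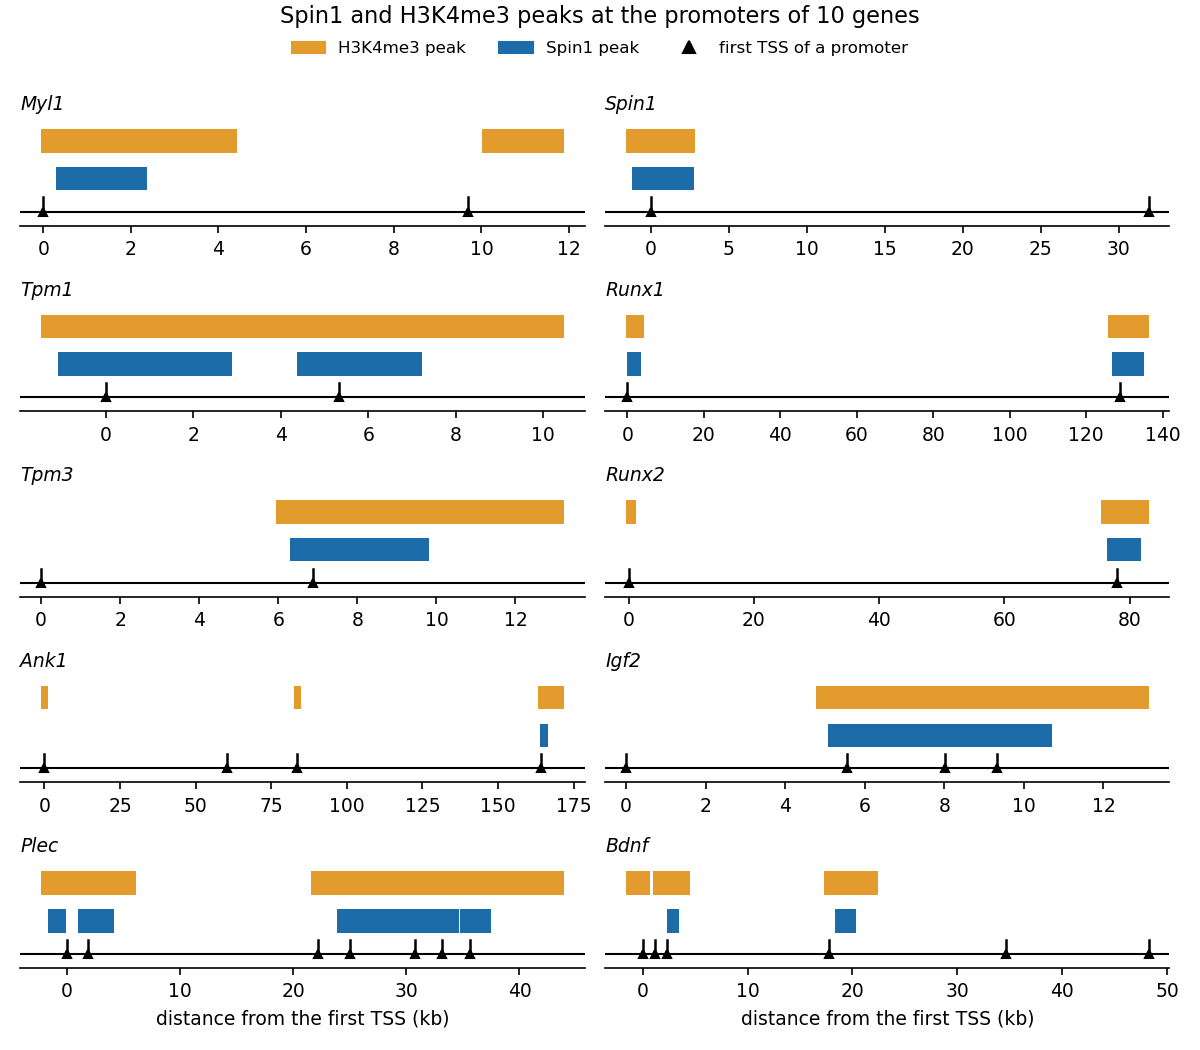
Spin1 peaks (blue) and H3K4me3 peaks (orange) that mark the promoters of 10 genes, on a scale of distance from the first TSS in the direction of transcription (kb); triangles are promoters. Plec has 7 promoters under 2 H3K4me3 peaks, while Spin1, Tpm3 and Igf2 each have 1 promoter without a peak.

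The counts of the 5 gene lists below stand beside 60.9% of alternative promoters with H3K4me3, 41.9% with Spin1 and 69.7% of members whose promoters differ. The genes named from each list were those with different marks at their promoters first, so that such genes are over-represented among them by choice.

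Of 41 transcription factors and RNA regulators of muscle looked at, 15 were members, with 44 promoters, of which 34 had H3K4me3 and 26 had Spin1, and in 11 of the 15 genes the promoters differed in their marks. Sox6, a repressor of slow fibre genes, had both marks at its first 2 promoters and no mark at the other 4, which lie from 43.7 to 237 kb downstream. Celf2, a splicing regulator, had an unmarked first promoter, and both marks at promoters 2, 4 and 5. Promoter 4, 524 kb downstream, had the widest peaks (Spin1 4090 bp, H3K4me3 8726 bp) and a CpG ratio of 1.05. Mef2c, a MADS-box factor of muscle differentiation, had both marks at 3 promoters and neither at the last, 69.6 kb downstream. The first of them stood alone with a CpG ratio of 0.296, and the other 2 shared 1 Spin1 peak.

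Hdac7 and Hdac9 encode class IIa histone deacetylases, partners of MEF2 factors, and neither had a mark at its first promoter. Hdac7 had both marks at its second promoter, 12.7 kb downstream, and H3K4me3 alone at the last, in a peak with a score of 64.4. Hdac9 had H3K4me3 alone at its second, 388 kb downstream, with a CpG ratio of 0.177. Among the splicing factors, Mbnl1, which is sequestered in myotonic dystrophy, had an unmarked upstream promoter and a Spin1 peak of 4099 bp at the downstream one. Rbfox1 had Spin1 at the second of 3 promoters, 1155 kb from the first, and H3K4me3 at all 3. Rbfox2 had both marks at the first and last of 3 promoters, with an H3K4me3 peak of 15165 bp at the last, and H3K4me3 alone between them. Tcf12, a ubiquitously expressed partner of the myogenic regulatory factors, and Mbnl2 had both marks at both promoters. All 4 promoters of Nfix, a factor of fetal myogenesis, had both marks too. Tcf12, Mbnl2 and Nfix were picked after their values were seen.

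Of 59 genes for the sarcomere, cytoskeleton and membrane anchors, 22 were members, with 62 promoters, of which 51 had H3K4me3 and 34 had Spin1, and in 15 genes the promoters differed. Ank1 encodes the erythroid ankyrin and, from its last promoter, the small ankyrin of the sarcoplasmic reticulum. That last promoter, 164 kb from the first, was the only one of its 4 with Spin1, and had an H3K4me3 peak of 8322 bp at a CpG ratio of 0.387. The first promoter of Ank1, with a ratio of 0.990, had H3K4me3 alone in a peak of 2381 bp. Promoter 3, with a ratio of 0.758, also had H3K4me3 alone, and promoter 2, with 0.445, had no mark, so that the promoter with the lowest ratio was the one with Spin1. Ank2 (ankyrin-B) had both marks at its first 2 promoters, H3K4me3 alone at promoter 3 and no mark at the last. Speg, a kinase of striated muscle, had Spin1 at promoters 2 and 4 of 4, in narrow peaks of 1123 and 671 bp.

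Among the other anchors, 3 genes had both marks at the first promoter and fewer at the last. Dst (dystonin, a cytolinker) and Dtna (alpha-dystrobrevin, of the dystrophin complex) had both marks at their first 2 promoters, and the last had neither in Dst and H3K4me3 alone in Dtna. Limch1, an actomyosin regulator, had both at the first, none at the next and H3K4me3 alone at the last, 223 kb downstream. Sorbs2, an adaptor of the cytoskeleton, had no Spin1 at any of 3 promoters, and H3K4me3 at the last 2. Fhl1, a LIM protein of muscle, had H3K4me3 alone at all 3, in peaks of 2878, 705 and 541 bp.

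Fhl1 and the following muscle genes were named after their values were seen. Dmd (dystrophin) had H3K4me3 alone at the muscle promoter of the full-length form, in a peak of 1020 bp that lay 550 bp from the TSS. Its promoter 2099 kb downstream, from which short dystrophins start, had an H3K4me3 peak of 2658 bp and a Spin1 peak of 934 bp. Tpm1 had both marks at its upstream promoter, for the long isoforms, and at the downstream one, for the short isoforms, where 1 H3K4me3 peak of 11937 bp spanned both and 2 Spin1 peaks stood apart. Lmna (lamin A/C) showed the same arrangement under an H3K4me3 peak of 17527 bp. Cald1 (caldesmon) had some of the widest Spin1 peaks, 6594 and 6016 bp, at promoters with CpG ratios of 0.299 and 0.292. At Nebl, the gene of the actin-binding protein nebulette, both marks lay upstream and neither downstream.

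Of 40 genes for excitation, calcium handling and metabolism, 8 were members, with 20 promoters, of which 11 had H3K4me3 and 9 had Spin1. The promoters differed in 7 of them. Agrn, which organises the neuromuscular synapse, had both marks at the upstream promoter and neither at the downstream one. Hk1 (hexokinase) and Camk2a (a calmodulin-dependent kinase) were marked downstream alone, and at Camk2a, where the downstream promoter starts the muscle anchoring protein alphaKAP, the Spin1 peak was 697 bp wide and the H3K4me3 peak 1613 bp. Cacna1c, a calcium channel gene, had both marks at the second of 3 promoters, which had a CpG ratio of 1.03. Pparg had both marks at its first 2 promoters and neither at the last, 61.1 kb downstream, which starts the adipocyte form. Pfkm, the muscle phosphofructokinase, had both marks at its first 2 promoters and H3K4me3 alone at the last. The peak at the last was 717 bp wide with a score of 90.6. Nrg1, a growth factor of motor axons and Schwann cells, had both marks at the first of 3 promoters and H3K4me3 alone at the last.

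Of 38 growth factor and signalling genes, 13 were members, with 42 promoters, of which 35 had H3K4me3 and 24 had Spin1, and the promoters differed in 11. Igf2, a growth factor that promotes myogenesis, had no mark at its first promoter and both marks at the next 3, which lay together under 1 Spin1 peak of 5634 bp and 1 H3K4me3 peak of 8352 bp. Gdnf, a neurotrophic factor, had both marks at 2 promoters and H3K4me3 alone at the last, all under 1 H3K4me3 peak of 7631 bp. Bdnf, another neurotrophin, had H3K4me3 at its first 4 promoters, Spin1 at promoters 3 and 4, and no mark at the last 2. Lef1, a Wnt pathway transcription factor, had both marks at the first 2 promoters and none at the last, 46.0 kb downstream.

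Among the signalling enzymes, Pde4b, a cAMP phosphodiesterase, had Spin1 at promoters 3 and 5 of 5, with a Spin1 peak of 3376 bp at promoter 3, where the CpG ratio was 0.246. Prkacb, a catalytic subunit of protein kinase A, had both marks at its first promoter and H3K4me3 alone in narrow peaks of 1288 and 540 bp at the other 2. These narrow peaks had scores of 671 and 52.1. Fgf13, an intracellular FGF homologue, had both marks at promoters 2 and 4 of 4. Arhgef10l, a guanine nucleotide exchange factor, had Spin1 at its downstream promoter, in a peak of 2517 bp. The imprinted Gnas locus, chosen after its values were seen, had both marks at all 4 promoters, and since the alleles are not separated in the peak lists, what each allele carries is not known.

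Of 37 regulators known for alternative promoters, 21 were members, with 53 promoters, of which 33 had H3K4me3 and 22 had Spin1, and the promoters differed in 17. Cyp19a1, Hnf4a, Dnmt3a, Rarb, Rarg, Runx1, Runx3, Trp63 and Trp73 are named here after their values were seen. Cyp19a1 (aromatase) and Hnf4a, which act in gonad and liver, had no mark at any promoter. Cdkn2a, shown above, had a Spin1 peak of 2854 bp at the p19ARF promoter and an H3K4me3 peak of 2157 bp alone at the p16INK4A promoter, 12.4 kb downstream. Dnmt1, the maintenance DNA methyltransferase, was marked downstream alone, with a Spin1 peak of 3259 bp. At Dnmt3a, whose downstream promoter starts the shorter Dnmt3a2, both marks lay upstream and H3K4me3 alone downstream. Mitf had both marks at the first of 3 promoters and none at the last, the promoter of the melanocyte form.

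The retinoid receptors differed from each other. Rara had both marks at 3 of 4 promoters and H3K4me3 alone at the last, Rxra had both at the first and none at the other 2, Rarb had both at the downstream promoter alone, and Rarg had both at both. Foxp1, a forkhead repressor, had both marks at the first and last of 4 promoters, 493 kb apart, and none at the 2 between them. Crem, a cAMP-responsive factor, had the same pattern, with a CpG ratio of 1.06 at the first and 0.354 at the last. Pax6, an eye and brain regulator, had H3K4me3 at all 3 promoters and Spin1 at the second. Of the runt-domain factors, Runx1 had Spin1 peaks of 3726 bp at the distal and 8374 bp at the proximal promoter, Runx2 had H3K4me3 alone at the distal and a Spin1 peak of 5415 bp at the proximal promoter, and Runx3 had H3K4me3 alone at the proximal one. Trp63 and Trp73, relatives of p53, had H3K4me3 alone at the upstream promoter and no mark at the downstream promoter of the truncated forms.

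The genes with the most promoters were Arpp21 and Plec, with 7 each, and Abr, Bdnf and Snrpn, with 6 each, taken before Sox6 by alphabet. Plec (plectin, which links intermediate filaments to Z-discs and membrane) had both marks at all 7 promoters. They lay within 35.7 kb under 2 H3K4me3 peaks of 8370 and 22300 bp, and the widest Spin1 peak, of 10815 bp, overlapped the windows of 5 of them. Arpp21, a phosphoprotein known from neurons, had both marks at the first 3 and the last 2 promoters, H3K4me3 alone at promoter 4 and no mark at promoter 5. Snrpn, an imprinted splicing gene, had both marks at the last of 6 promoters and none at the 5 upstream ones, which spread over 402 kb. Abr, a regulator of small GTPases, had both marks at promoters 2 and 4, H3K4me3 alone at the last 2 and neither at promoters 1 and 3. In genes with many promoters the marked ones were thus gathered under a few peaks in Plec and Arpp21, and spread in Abr.

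Among genes with 2 promoters, the widest Spin1 peaks at a downstream promoter with none upstream were those of Rbpj (6556 bp), Runx2 (5415 bp), Rbms3 (5239 bp), Nav2 (4181 bp) and Ccnd3 (4101 bp). Rbpj is the transcription factor of Notch signalling, which keeps muscle stem cells quiescent, and Ccnd3 is the D-type cyclin that rises in differentiating myoblasts. Upstream, Runx2, Nav2 and Ccnd3 had H3K4me3 alone, in peaks of 1562, 1142 and 1591 bp, and Rbpj and Rbms3 had no mark. The downstream promoters of Rbpj, Runx2, Nav2 and Ccnd3 had CpG ratios from 0.834 to 0.955, and that of Rbms3 had 0.412.

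Among the same genes, the reverse order, with Spin1 upstream alone, had its widest peaks at Setd5 (6413 bp), Rtn4 (6264 bp), Vegfa (6242 bp), Cd82 (6215 bp) and Bcl6 (5500 bp). Setd5, a SET-domain gene, shares its upstream promoter with a neighbour, the transcript of the Rosa26 locus. Vegfa encodes the angiogenic growth factor, Rtn4 the neurite inhibitor Nogo, and Cd82 a tetraspanin. In Vegfa and Bcl6, 1 H3K4me3 peak (8889 and 10961 bp) reached both promoters, while the Spin1 peak stayed at the upstream one.

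Of genes with 2 promoters, Bcl6, Nfe2l1, Vegfa, Tcf7l2 and Nedd4 had the widest H3K4me3 peaks at a promoter without Spin1 in a gene with Spin1 at the other promoter. In Bcl6, Nfe2l1 (9405 bp) and Vegfa the peak was shared by both promoters. Tcf7l2, a Wnt pathway transcription factor, had a separate H3K4me3 peak of 7265 bp at its downstream promoter with a CpG ratio of 0.704, and Nedd4, a ubiquitin ligase, one of 4700 bp with a ratio of 0.549. Wide H3K4me3 peaks without Spin1 therefore occurred apart from shared peaks too.

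Spin1 without H3K4me3 was found at 4 alternative promoters, those of Cxxc5 (downstream), S100a3 (first of 4), Synj2 (last of 3) and Taok3 (downstream). The Spin1 peaks there were 929, 692, 684 and 622 bp wide, with scores of 163, 116, 103 and 122, all below the median score of 2149 at alternative promoters with Spin1. All 4 genes had both marks at another promoter. Over all genes, 12 of 23478 promoters had Spin1 alone.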

How the data were processed

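The authors aligned the reads to mm10 with Bowtie2 and MACS 1.4.2 found peaks over the input at a false discovery rate of 1%. The deposited score of a peak is minus 10 log10 of p, as the authors give it. Peak lists hold no read counts, so the depth of the libraries is unknown. Because scores accumulate at 3100, widths were compared. Of 25 samples in the series, the 2 ChIP-seq peak lists were used, while 22 RNA-seq samples and the input library were not used here. Promoters came from curated mRNAs of RefSeq release 108.20200622 on GRCm38, with transcription start sites within 1 kb merged. A mark is an overlap of at least 1 bp with 1 kb on either side of the start site. From each of 5 gene lists, up to 8 members were picked, those with different marks at their promoters first and then by number of promoters, of which some are not named, further genes by number of promoters or peak width, and others after their values were seen. The members and lists were chosen with earlier results of these data known. Windows of 0.5 and 2 kb, a distance of 10 kb, the top 50% of peaks, predicted transcripts and other choices were tried too. The code was tested on simulated data. Python 3.11.15, NumPy 2.4.6, SciPy 1.17.1, pysam 0.24.0 and matplotlib 3.10.9 were used.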

Additional observations from a re-analysis of the deposited data

How the results depend on the processing

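No paired analysis was possible because there was 1 library per antibody and no result comes from a test. In each of 9 alternatives for either mark, the share with the mark upstream among genes marked at 1 of 2 promoters stayed above 50%, from 71.5 to 85.1% for H3K4me3 and from 72.7 to 84.8% for Spin1.

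With the 50% of peaks with the highest score, fewer promoters are marked by construction. H3K4me3 marked 50.3% of alternative promoters and Spin1 25.8%, and Spin1 was present at 51.1% of those with H3K4me3. Of genes with 2 promoters, 25.5% had H3K4me3 at both and 6.81% had Spin1 at both, and 26.8% of the genes with H3K4me3 at both had Spin1 at both. By distance, H3K4me3 lay at both promoters in 21.5% (5 to 10 kb), 21.6% (10 to 25 kb), 21.3% (25 to 50 kb), 38.7% (50 to 100 kb) and 33.6% (over 100 kb). Median CpG ratios were 0.773 with both marks, 0.581 with H3K4me3 alone and 0.243 with neither. Median widths upstream and downstream were 3336 and 3143 bp for H3K4me3, and 2597 and 2597 bp for Spin1, so that the difference for Spin1 was lost.

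Where the TSS had to lie inside the peak, the shares were 57.7% for H3K4me3, 38.0% for Spin1 and 65.6% for Spin1 among H3K4me3, and both promoters were marked in 33.5% and 16.2% of genes. A window of 2 kb gave 62.7% for H3K4me3.

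With predicted transcripts added, there were 4185 member genes, and the shares were 44.8% for H3K4me3 and 31.3% for Spin1. Both promoters had H3K4me3 in 16.4% and Spin1 in 7.53% of genes, and 45.2% of the former had Spin1 at both. The mark lay upstream in 85.1% (H3K4me3) and 84.8% (Spin1) of genes marked at 1 promoter.

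Without promoters near another gene, the shares were 58.4% for H3K4me3, 38.8% for Spin1 and 66.2% for Spin1 among H3K4me3. Both promoters had H3K4me3 in 33.2% and Spin1 in 14.4% of genes, and 42.6% of the former had Spin1 at both. At 5 to 10 kb the share with H3K4me3 at both was 29.9%, and median upstream widths were 2990 bp (H3K4me3) and 2111 bp (Spin1, against 2004 bp downstream, with intervals that overlap). Without genes with a shared peak, the shares were 58.7% for H3K4me3 and 39.5% for Spin1. With 250 bases on either side, median CpG ratios were 0.766, 0.463 and 0.236 for both marks, H3K4me3 alone and neither. Apart from the choice of fewer peaks, the cause was not tested.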
